A study of Homo sapiens with 6 samples.

Results

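A set of 10 genes commonly read as marks of glial, mesenchymal or stem-cell identity was chosen by name: GFAP, VIM, NES, SOX2, SOX9, CD44, S100B, OLIG2, CHI3L1 and PROM1. Of these 10 genes, 9 had a row among the 23002 genes of the expression table, and CHI3L1, which encodes a secreted chitinase-like glycoprotein, was not analysed here. The values came from U251, an established human glioblastoma line, and the sample labels name no added cytokine. Of the 6 samples, 3 carried a non-targeting control short hairpin RNA (sh-NC) and 3 carried a hairpin against TRAF2 (sh-TRAF2), an adaptor protein of tumor necrosis factor receptor signaling. A short hairpin RNA is processed in the cell into a guide that lowers transcripts with a matching sequence. Both groups were stable lines made by lentiviral transduction and puromycin selection. The vector listed for the TRAF2 hairpins also carries EGFP, and the vector of sh-NC is not listed. The sources used here do not say whether a line grew from 1 clone. The replicates are called biological, but nothing says that they were separate transductions, so p-values measure the spread between these samples, which may be partly technical.

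Astrocytes and glioma cells build their intermediate filaments from GFAP, vimentin (VIM) and nestin (NES), with GFAP marking differentiated astrocytes and nestin marking neural progenitors. SOX2 and SOX9 are transcription factors that maintain neural and glial progenitors, and OLIG2 is the basic helix-loop-helix factor of the oligodendrocyte lineage. CD44 is the cell-surface receptor for hyaluronan and is read, with vimentin and CHI3L1, as a mark of the mesenchymal state of glioblastoma, while PROM1 (CD133) is a surface antigen used to enrich tumor-initiating cells. S100B is a calcium-binding protein abundant in astrocytes.

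The level of the targeted gene matched the labels in all 6 samples. The FPKM of TRAF2 (fragments per kilobase of transcript, scaled to the depth of the library, the unit the authors deposited) was 15.1, 18.4 and 15.3 in sh-NC replicates 1, 2 and 3 and 3.26, 3.22 and 3.33 in sh-TRAF2 replicates 1, 2 and 3. The groups did not overlap, with a log2 fold change of -2.27 (SE 0.0791, adjusted p = 1.16e-06 from limma). The reads behind the FPKM values, recovered from their step size, came to between 33999558 and 36823562 per sample. Replicates of a group differed beyond sampling noise in each pair, the lowest chi-square per gene being 5.25.

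The sources name a pair of TRAF2 hairpins and do not say which one was sequenced. Their target sites are shown because a hairpin can also lower transcripts that share part of its target, and the capitals mark the longest run that each target shared with a transcript of an identity marker (GFAP for the first target, and CD44 and then PROM1 for the second).
sh-TRAF2#1, run shared with GFAP: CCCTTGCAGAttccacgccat
sh-TRAF2#2, run shared with CD44: ctgGACCAAGACAagattgaa
sh-TRAF2#2, run shared with PROM1: ctggaccaaGACAAGATTGaa
In GRCh38 the first target lay at chr9:136916579-136916599 on the plus strand, in exon 7 of the 11 exons of TRAF2-201, and the second at chr9:136920480-136920500 in exon 8, both in coding sequence. Over the protein-coding transcripts of 19669 genes in GENCODE release 29, TRAF2 was the 1 gene holding either target whole, over all 21 bases. The longest run shared with GFAP was 10 bases of the first target, and 4.24% of genes shared a run at least as long. Of the second target, CD44 and PROM1 each held 10 bases, as 6.05% of genes did, and VIM and NES held 9, as 21.2% of genes did. No identity marker shared an unbroken run of more than 10 of the 21 bases with either target. Matches that allow mismatches were not counted.

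At baseline, VIM was far above the other markers. In sh-NC its FPKM was 1242 ± 38.9 (SD, n = 3), and 19 genes of the table were higher. CD44 followed at 189 ± 2.51 (SD, n = 3), then SOX9 at 29.5 ± 2.15 (SD, n = 3) and SOX2 at 25.4 ± 1.19 (SD, n = 3), at percentiles 98.8, 90.7 and 89.4 of the table. NES stood at 5.35 ± 0.528 (SD, n = 3), at percentile 69.6. GFAP, the defining filament of astrocytes, reached 0.467 ± 0.176 (SD, n = 3), at percentile 48.2. FPKM is scaled to transcript length, so these levels can be set beside each other, although the transcript lengths used for the scaling are not given in the sources used here.

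The markers at the bottom of the order were near or at the limit of detection. OLIG2 rested on 13 reads over the 3 sh-NC samples, of which 11 came from replicate 2, and PROM1 rested on 4 reads. S100B was listed at 0 in all 3 sh-NC samples. A count of 0 allows up to 3 reads, which for S100B is an FPKM of 0.0632 to 0.0685 depending on the sample.

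The order of levels was the same in both groups: VIM, CD44, SOX9, SOX2, NES, GFAP, OLIG2, PROM1 and S100B. Down to OLIG2 the sample ranges of neighbours did not overlap in either group, whereas OLIG2 and PROM1, and PROM1 and S100B, could not be told apart. The narrowest separated step was from SOX9 to SOX2, with a ratio of mean FPKM of 1.16 in sh-NC and 1.14 in sh-TRAF2. The step from SOX2 to NES shrank from 4.76 to 2.37.

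**Figure D1:**
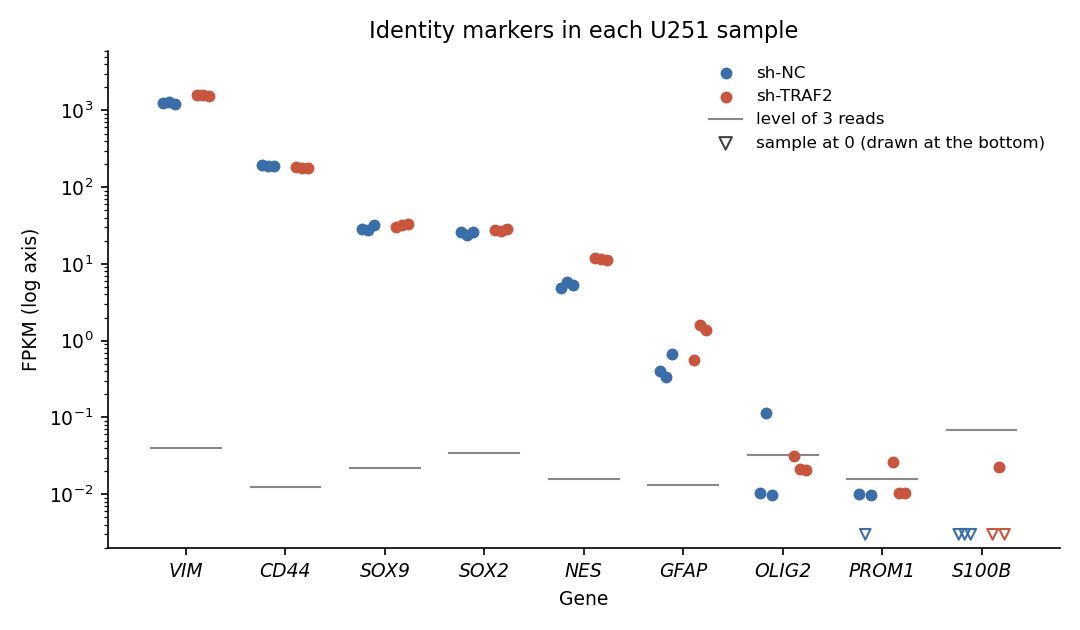
FPKM (log axis) of the 9 identity markers in each of the 3 sh-NC and 3 sh-TRAF2 samples, 1 point per sample, with a grey line at the level of 3 reads and open triangles for samples listed at 0. VIM sits between 1208 and 1606, while OLIG2, PROM1 and S100B sit around or under the level of 3 reads, apart from OLIG2 in sh-NC replicate 2 at 0.113.

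The comparison of sh-TRAF2 with sh-NC was fitted by limma to log2(FPKM + 0.1) of the 11870 genes whose mean FPKM reached 0.5, with Benjamini-Hochberg adjustment across all of them. On this scale the pseudocount pulls the fold changes of genes near the filter, such as GFAP, towards 0. Of the 9 markers with a row, 6 passed the filter on low values, and OLIG2, PROM1 and S100B did not. At an adjusted p under 0.05, 3 of the 6 tested markers were higher in sh-TRAF2 (VIM, NES and GFAP), in a comparison where 23.7% of all tested genes were higher, and 0 of 6 were lower, where 20.9% of all tested genes were lower. Before adjustment, limma gave a p under 0.05 for 4 of the 6 in the higher direction (SOX2 in addition) and for 1 in the lower direction (CD44). The fit of limma-voom to the recovered reads also called 3 higher and 0 lower. With the added threshold of the study, an absolute log2 fold change above 1, NES and GFAP were called higher, against 0.986% of all tested genes. No marker was called lower, against 0.733%. With a pseudocount of 1 the estimate was 0.54 for GFAP and 1.00 for NES. For GFAP it was 0.93, 0.84 and 0.95 without sh-NC replicate 2, sh-TRAF2 replicate 2 and sh-TRAF2 replicate 3. In the other alternatives that tested GFAP its estimate stayed above 1. The groups did not overlap for 4 of the 6 tested markers (VIM, NES, SOX2 and CD44), and 55.5% of all tested genes had groups that did not overlap. These counts cover the markers that passed the filter, and GFAP passed it only through the sh-TRAF2 samples, since its sh-NC mean was under 0.5.

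**Figure D2:**
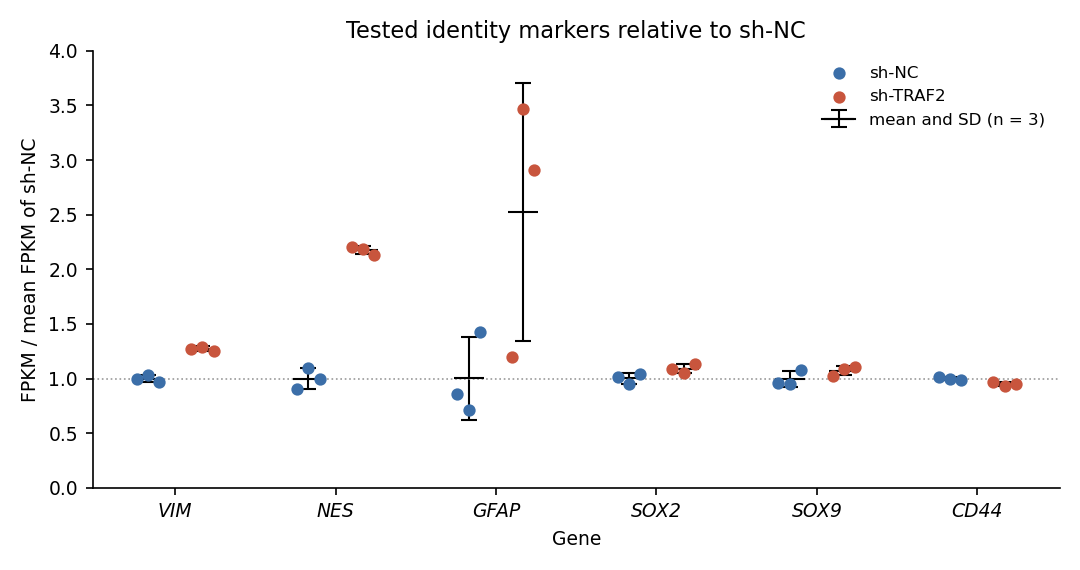
FPKM of each of the 6 tested markers divided by the mean of its 3 sh-NC samples, 1 point per sample, with the mean and SD of each group (n = 3). NES separates by a ratio of means of 2.18 with a small spread, VIM separates by a smaller step, GFAP spreads widely with 1 sh-TRAF2 sample below the highest sh-NC sample, and SOX2, SOX9 and CD44 stay close to 1.

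Among the 3 intermediate filament genes, NES showed the clearest difference. Its FPKM was 4.82, 5.88 and 5.34 in the sh-NC samples and 11.8, 11.7 and 11.4 in the sh-TRAF2 samples. Every sh-TRAF2 sample lay above every sh-NC sample, and the spread was smaller in sh-TRAF2, with a coefficient of variation of 1.94% against 9.88%. The log2 fold change was 1.12 (SE 0.0734, 95% interval 0.95 to 1.28, adjusted p = 1.91e-05 from limma), a fold of 2.17. By absolute log2 fold change NES ranked 147 among the 11870 genes, and 1.23% had a larger one. Behind the value stood 3232 reads over the sh-NC samples and 6769 over the sh-TRAF2 samples, and stayed between 1.00 and 1.19 over 15 alternative settings, with an adjusted p under 0.05 in all 15.

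VIM differed by a smaller fold at a much higher level. Its FPKM was 1234, 1284 and 1208 in sh-NC and 1583, 1606 and 1557 in sh-TRAF2, with no overlap between the groups. The log2 fold change was 0.35 (SE 0.0302, 95% interval 0.28 to 0.42, adjusted p = 6.87e-05 from limma), a fold of 1.27. Of all tested genes 24.4% had a larger absolute change. Expressed as a share of all reads on genes, VIM took 0.269%, 0.28% and 0.263% in sh-NC and 0.345%, 0.35% and 0.339% in sh-TRAF2.

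GFAP was low and varied between samples of a group. Its FPKM was 0.402, 0.334 and 0.666 in sh-NC and 0.561, 1.62 and 1.36 in sh-TRAF2. Replicate 1 of sh-TRAF2 lay below replicate 3 of sh-NC, so the groups overlapped, and the other two sh-TRAF2 samples lay above every sh-NC sample. The reads behind these values were 96, 80 and 166 in sh-NC and 131, 373 and 320 in sh-TRAF2. The coefficient of variation was 37.6% in sh-NC and 46.8% in sh-TRAF2, where counting error alone would give 9.37% and 6.03%. The log2 fold change was 1.11 (SE 0.367, 95% interval 0.27 to 1.95, adjusted p = 0.0382 from limma), and the exact two-sided permutation test over the 20 assignments of samples gave p = 0.2, where 0.1 is the smallest p this design allows. The adjusted p was 0.12 with no filter on low values, 0.0676 with eBayes without a trend, and 0.092, 0.103, 0.132 and 0.116 without sh-NC replicate 1, sh-NC replicate 2, sh-TRAF2 replicate 2 and sh-TRAF2 replicate 3. Over 14 alternatives it ran from 0.00471 to 0.132, under 0.05 in 8 of them. The call for GFAP was thus lost when 1 of these 4 samples was left out or when these 2 settings were changed.

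**Figure D3:**
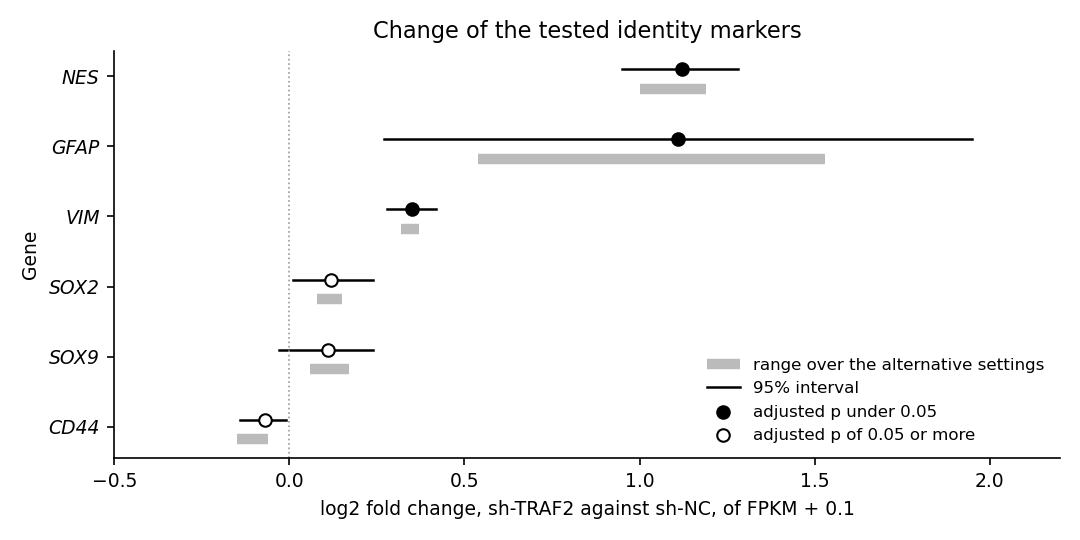
Log2 fold change of FPKM + 0.1, sh-TRAF2 against sh-NC, for the 6 tested markers, with the 95% limma interval (black line), the range over the alternative settings (grey bar) and filled points for an adjusted p under 0.05. NES and GFAP have near-equal estimates of 1.12 and 1.11, while the interval of GFAP runs from 0.27 to 1.95 and that of NES from 0.95 to 1.28.

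The progenitor transcription factors moved little. SOX2 was at 25.8, 24.1 and 26.4 in sh-NC and 27.7, 26.6 and 28.7 in sh-TRAF2, so the lowest sh-TRAF2 sample lay just above the highest sh-NC sample. Its log2 fold change was 0.12 (SE 0.0495, 95% interval 0.01 to 0.24, adjusted p = 0.0754 from limma) and did not pass the threshold. SOX9 was at 28.3, 28.1 and 31.9 in sh-NC and 30.2, 32.1 and 32.7 in sh-TRAF2, with overlapping groups. Its log2 fold change of 0.11 (SE 0.0589, 95% interval -0.03 to 0.24, adjusted p = 0.177 from limma) did not pass either, although it did without sh-NC replicate 3, the highest sh-NC sample, at 0.17 (adjusted p = 0.0363 from limma). The intervals leave out changes as large as that of NES for both factors.

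The reads on OLIG2 were 1, 11 and 1 in sh-NC and 3, 2 and 2 in sh-TRAF2. At these counts a difference between the groups was not detectable, and the sh-NC total was set by replicate 2. In the fit with no filter its log2 fold change was -0.14 (adjusted p = 0.759 from limma).

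CD44 was the second most abundant marker, with 144617 reads over the sh-NC samples and 131949 over the sh-TRAF2 samples. Its FPKM was 192, 188 and 187 in sh-NC and 183, 177 and 179 in sh-TRAF2, lower in every sh-TRAF2 sample than in any sh-NC sample. The difference was small, with a log2 fold change of -0.07 (SE 0.0295, 95% interval -0.14 to -0.01, adjusted p = 0.0732 from limma), and did not pass the threshold. It passed after rescaling each sample to a common total (TPM, log2 fold change -0.09, adjusted p = 0.0403 from limma) and after quantile normalization (-0.15, adjusted p = 0.00299 from limma). Under these scalings the median log2 fold change of all tested genes stood at 0.01 and -0.00, beside 0.02 for FPKM.

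The reads on PROM1 were 2, 0 and 2 in sh-NC and 5, 2 and 2 in sh-TRAF2. The FPKM values of the groups did not overlap, but the highest sh-NC value (0.0101) and the lowest sh-TRAF2 value (0.0103) both stood for 2 reads. S100B gave 1 read in sh-TRAF2 replicate 2 and 0 elsewhere. With no filter, the log2 fold changes were 0.11 for PROM1 (adjusted p = 0.434 from limma) and 0.10 for S100B (adjusted p = 0.534 from limma), and these depths could not show a difference for either gene.

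Ratios of markers within a sample do not depend on the total of that sample. NES per 100 VIM was 0.391, 0.458 and 0.442 in sh-NC and 0.748, 0.732 and 0.733 in sh-TRAF2. NES per SOX2 was 0.187, 0.244 and 0.202 in sh-NC and 0.427, 0.441 and 0.397 in sh-TRAF2. VIM per CD44 was 6.44, 6.84 and 6.46 in sh-NC and 8.66, 9.09 and 8.71 in sh-TRAF2. Each of these 3 ratios was higher in every sh-TRAF2 sample, with p = 0.1 in the exact permutation test, the smallest possible. This separation follows from the ranges of the single genes given above and is not separate support. SOX9 per SOX2 was 1.16 ± 0.0545 and 1.14 ± 0.0588 (SD, n = 3 per group), with p = 0.7 in the exact permutation test. A total of 4 ratios were computed, and with a smallest p of 0.1 none could pass an adjustment.

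Several markers share their locus with another transcript, and the use of strand in counting is not stated, so reads of overlapping genes may not be fully separated. VIM (chr10:17228259-17237593, plus strand, GRCh38, GENCODE release 29) overlaps the antisense gene VIM-AS1. The FPKM of VIM-AS1 was 68.4, 51.8 and 46.1 in sh-NC and 86.3, 102 and 99.7 in sh-TRAF2, with a log2 fold change of 0.81 (SE 0.131, adjusted p = 0.00154 from limma). It held 11955 reads over the sh-NC and 19955 over the sh-TRAF2 samples, beside 290781 and 355547 for VIM.

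SOX2 (chr3:181711924-181714436, plus strand) lies within the noncoding gene SOX2-OT on the same strand. SOX2-OT was at 1.59, 1.65 and 1.63 in sh-NC and 1.18, 1.15 and 1.3 in sh-TRAF2, a log2 fold change of -0.40 (SE 0.101, adjusted p = 0.0134 from limma), opposite in sign to the value of SOX2. GFAP (chr17:44903161-44916937, minus strand) overlaps CCDC103 on the opposite strand, which had a log2 fold change of 0.25 (adjusted p = 0.0921 from limma). SOX9-AS1, opposite SOX9 (chr17:72121020-72126420, plus strand), held 25 reads over the sh-NC and 26 over the sh-TRAF2 samples. NES (chr1:156668763-156677397, minus strand) had no overlapping gene in that annotation, while the annotation used for counting is not given. CD44 (chr11:35138870-35232402, plus strand) and its antisense gene could not be compared, since the latter was not analysed here.

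The promoters of the tested markers were read for 5 short motifs, because TRAF2 acts upstream of the kappaB and AP-1 factors. RefSeq promoters (GRCh38.p14, from 250 bases before to 50 after the start) were supplied for VIM, NES, SOX2 and CD44 among the tested markers. On both strands, no match to TGANTCA (AP-1) or GGNNNTTCC (kappaB core) was found in these 4 windows, and of 27305 promoters 7.8% held the first and 20.1% the second. None of the 4 held TATAAA, which 12.0% of promoters held, and SOX2 alone of the 4 held CCAAT, at -47 from the start, as 35.7% of promoters did. All 4 held the GC box GGGCGG, which 44.6% of promoters held. The absence of these letters from so short a window says nothing about binding elsewhere. A stretch of 30 bases is shown for each, in the direction of the gene, with 1 GC box or its reverse complement in capitals. The NES stretch marks the match at -50 and opens with another, at -62, left in lower case.
VIM, chr10:17228183-17228212: ccagagggacggGGGCGGggactctgcaag
NES, chr1:156677440-156677469: ccgcccctcttcCCGCCCgcctggcgggag
SOX2, chr3:181711801-181711830: gcgcgggaggccCCGCCCcctttcatgcaa
CD44, chr11:35139007-35139036: gggcagaggggcCCGCCCgggagggctgct
NES held 4 such matches, CD44 held 2, and VIM and SOX2 held 1 each. Whether the motif goes with a change of a marker was not tested.

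The identity of the cells was then read from surrounding lists of marker genes. Their counts stand against the shares of all tested genes given above, 23.7% higher and 20.9% lower. Of 12 further astrocyte markers 10 had a row and 5 were tested. SLC1A3, a glutamate transporter of astrocytes, rose (FPKM 11.2 ± 0.959 to 15.5 ± 1.6, SD, n = 3 per group, log2 fold change 0.47, adjusted p = 0.00282 from limma), and NFIB, a factor of gliogenesis, fell (11.1 ± 0.262 to 6.89 ± 0.162, SD, n = 3 per group, log2 fold change -0.68, adjusted p = 2.8e-05 from limma). The other 3 tested astrocyte genes did not pass. The gap-junction protein GJA1 stood at 20.9 ± 0.674 and 19.8 ± 1.62 and the glutamine synthetase GLUL at 5.55 ± 0.574 and 5.23 ± 0.105 (SD, n = 3 per group). The count was thus 1 of 5 in each direction, near the shares of all tested genes, and the median log2 fold change of the list was -0.08, beside 0.02 for all tested genes. SLC1A2, the other astrocyte glutamate transporter, gave 1 to 5 reads per sample. ALDOC, also under the filter, gave 6, 11 and 9 reads in sh-NC and 3, 2 and 2 in sh-TRAF2. Its FPKM was 0.138 ± 0.04 and 0.0387 ± 0.00949 (SD, n = 3 per group), lower in sh-TRAF2 with no overlap between the groups. AQP4 and ALDH1L1 were not analysed here. Among astrocyte markers, S100B, SLC1A2 and ALDOC were thus near or under detection, GFAP was low, and GJA1, SLC1A3, NFIB and GLUL were measured well above the filter.

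Markers of the oligodendrocyte lineage beside OLIG2 were mostly low. Of 15 genes 12 had a row and 3 were tested, and 1 of these rose (33.3%, beside 23.7% of all tested genes), CNP, a myelin enzyme that is also expressed outside the lineage, from 16 ± 0.448 to 20.3 ± 1.27 (SD, n = 3 per group, log2 fold change 0.34, adjusted p = 0.00152 from limma). PDGFRA, a growth factor receptor, was at 0.601 ± 0.0522 and 0.776 ± 0.0164 (SD, n = 3 per group), without overlap. Its log2 fold change was 0.32 (adjusted p = 0.106 from limma), and it passed with eBayes without a trend and with limma-voom. MOG, a surface protein of myelin, was above 0 in sh-NC replicate 3 alone, at an FPKM of 0.0106. OLIG1, SOX10 and MAG were not analysed here. The median log2 fold change of the 3 tested genes was 0.32.

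Of 9 neuronal markers 8 had a row, and all 3 that were tested changed, 1 up and 2 down, where 44.6% of all tested genes were called in either direction. Their median log2 fold change was -0.47. TUBB3, neuronal beta-tubulin, rose by 0.45 on the log2 scale (adjusted p = 0.000152 from limma). MAP2, a microtubule-associated protein, fell by 0.47 (adjusted p = 0.00149 from limma), and SYT1, a synaptic vesicle calcium sensor, fell by 0.86 (adjusted p = 1.95e-05 from limma). SNAP25, a synaptic membrane-fusion protein under the filter, was at 0.201, 0.383 and 0.307 in sh-NC and 0.487, 0.703 and 0.604 in sh-TRAF2, on 22 to 74 reads a sample. Limma-voom on the recovered reads called it higher (log2 fold change 1.03, adjusted p = 0.0142), and limma with no filter did not (0.83, adjusted p = 0.0586). DCX, RBFOX3 and STMN2 gave at most 2 reads in a sample, and NEUROD1 was not analysed here.

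Further neural stem-cell markers, beside NES, SOX2, SOX9 and PROM1, numbered 18, of which 17 had a row and 13 were tested. In limma 0 of the 13 were higher and 4 were lower, 30.8%, against 23.7% higher and 20.9% lower among all tested genes, with a median log2 fold change of -0.09. Before adjustment limma gave a p under 0.05 for 1 of the 13 in the higher direction and 4 in the lower, with no share of all genes given. Limma-voom called 0 of the 13 higher and 4 lower, beside 3022 higher and 2737 lower of its 14130 genes. Limma-voom did call FUT4, a fucosyltransferase under the filter, higher (log2 fold change 0.58, adjusted p = 0.0317). Its FPKM was 0.338, 0.285 and 0.311 in sh-NC and 0.442, 0.454 and 0.501 in sh-TRAF2, without overlap, and limma with no filter did not call it (0.46, adjusted p = 0.107). The 4 lower genes were ID3, an inhibitor of basic helix-loop-helix factors (-0.33, adjusted p = 0.00862 from limma), ALDH1A3, an aldehyde dehydrogenase (-0.31, adjusted p = 0.00963 from limma), the transcription factor MYC (-0.14, adjusted p = 0.0134 from limma) and the RNA-binding protein MSI2 (-0.26, adjusted p = 0.0228 from limma). MSI2 did not pass with no filter or without sh-NC replicate 1 or 3 or sh-TRAF2 replicate 1 or 2, with an adjusted p of up to 0.0779 over 15 alternatives. MSI1 gave 1 to 7 reads per sample and POU5F1 at most 2, and NANOG was not analysed here.

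Mesenchymal genes moved in both directions. Of 13 regulators 12 were tested, and 2 were higher (16.7%) and 3 were lower (25.0%), near the 23.7% and 20.9% of all tested genes, with a median log2 fold change of -0.05. FOSL2 (0.38, adjusted p = 0.000431 from limma) and STAT3 (0.27, adjusted p = 0.00173 from limma), both transcription factors tied to the mesenchymal state of glioblastoma, rose. SNAI2 (-0.44, adjusted p = 0.00213 from limma) and ZEB2 (-0.26, adjusted p = 0.00284 from limma), repressors of epithelial genes, fell, and so did CEBPB (-0.15, adjusted p = 0.0117 from limma), a factor classed with STAT3 as a regulator of the mesenchymal state.

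Of the 14 mesenchymal effector genes all were tested, and 3 were higher (21.4%) and 2 were lower (14.3%), beside 23.7% and 20.9% of all tested genes, with a median log2 fold change of -0.00. THBS1, a matricellular protein, rose from 55.1 ± 2.75 to 92.7 ± 1.94 (SD, n = 3 per group, log2 fold change 0.75, adjusted p = 1.02e-05 from limma). LGALS1, a galectin at a level near that of VIM, rose from 1012 ± 1.91 to 1350 ± 27.2 (SD, n = 3 per group, log2 fold change 0.42, adjusted p = 1.27e-05 from limma). PLAUR, the urokinase receptor, rose by 0.30 (adjusted p = 0.00168 from limma). TGFBI, a secreted matrix protein, fell from 330.0 ± 10.4 to 184 ± 8.34 (SD, n = 3 per group, log2 fold change -0.84, adjusted p = 4.41e-06 from limma). Under quantile normalization 3 effectors were higher and 5 lower, where 2541 of the 11870 tested genes were higher and 2725 lower.

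Intermediate filament genes outside the trio of VIM, NES and GFAP were read from a list of 15, of which 12 had a row and 8 were tested. Of these 8, 3 were higher (37.5%), 1 was lower (12.5%) and 4 did not pass, beside 23.7% and 20.9% of all tested genes, with a median log2 fold change of 0.12. KRT18, a keratin of simple epithelia, was at 18.2, 18.6 and 16.3 in sh-NC and 26.5, 27.3 and 27.8 in sh-TRAF2 (log2 fold change 0.62, adjusted p = 8.74e-05 from limma). Its partner KRT8 was low, at 0.792 ± 0.0409 and 1.2 ± 0.16 (SD, n = 3 per group, log2 fold change 0.54, adjusted p = 0.0134 from limma), and did not pass without sh-TRAF2 replicate 2 (adjusted p = 0.0545 from limma). The nuclear lamin LMNA rose by 0.39 (adjusted p = 0.000525 from limma). The light neurofilament NEFL fell, from 31.7 ± 3.94 to 23.4 ± 1.75 (SD, n = 3 per group, log2 fold change -0.43, adjusted p = 0.00616 from limma). DES, NEFH and INA were not analysed here. In the GO annotation of the table, the term intermediate filament held 55 genes, and GFAP, VIM and NES were the 3 identity markers among them.

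Relatives of the markers by sequence were read from a list of 27, of which 22 had a row and 14 were tested, with 3 higher and 3 lower, 21.4% each and near the 23.7% and 20.9% of all tested genes, and a median log2 fold change of -0.07. SOX3, of the same SOXB1 group as SOX2, was the 1 relative past the thresholds of the study. Its FPKM was 3.3, 3.78 and 3.12 in sh-NC and 7.7, 8.15 and 7.78 in sh-TRAF2, a log2 fold change of 1.19 (SE 0.0777, adjusted p = 1.83e-05 from limma), with no overlap between the groups. SOX2 itself changed by 0.12 on the same scale. SOX13 rose by 0.45 (adjusted p = 0.00175 from limma). Among S100 genes, S100A10, the partner of annexin A2, rose by 0.23 (adjusted p = 0.00163 from limma) and S100A2 fell by 0.27 (adjusted p = 0.00147 from limma). The other two that fell were S100A6 (-0.14, adjusted p = 0.00526 from limma, not passing with no filter) and SOX4 (-0.25, adjusted p = 0.0297 from limma). SOX4 did not pass with no filter, with eBayes without a trend, or without sh-NC replicate 1 or 3 or sh-TRAF2 replicate 2 or 3. SOX5 was under the filter and was called higher by limma-voom (0.40, adjusted p = 0.0186). SOX1, SOX8, SOX11, OLIG3 and CHIA were not analysed here.

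Of 14 ligands, partners and proteases of CD44, 12 had a row and 10 were tested, with 4 higher and 4 lower, 40.0% each beside 23.7% and 20.9% of all tested genes, and a median log2 fold change of 0.03. HAS2, a hyaluronan synthase, was at 1.66, 1.71 and 1.46 in sh-NC and 3.4, 2.77 and 2.7 in sh-TRAF2 (log2 fold change 0.83, adjusted p = 0.000616 from limma). HMMR, a second hyaluronan receptor, rose by 0.53 (adjusted p = 0.000389 from limma). MMP14, a membrane protease that cuts CD44, was at 39.5, 39.1 and 39.7 in sh-NC and 25.6, 25.6 and 27.5 in sh-TRAF2 (log2 fold change -0.59, adjusted p = 2.8e-05 from limma). The ERM proteins, which link CD44 to actin, moved in both directions. RDX fell by 0.34 (adjusted p = 0.00071 from limma), EZR rose by 0.17 (adjusted p = 0.00349 from limma) and MSN rose by 0.12 (adjusted p = 0.0215 from limma). MSN did not pass with no filter, with eBayes without a trend, or without sh-NC replicate 1 or 3 or sh-TRAF2 replicate 1 or 2. The proteases ADAM10 (-0.25, adjusted p = 0.0115 from limma) and ADAM17 (-0.39, adjusted p = 0.00217 from limma) fell. HAS1 and LYVE1 were not analysed here.

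Markers of other cell types were read to check the line. Of 12 immune, endothelial, epithelial and mural genes 11 had a row and 2 were tested (CD68 and RGS5), and neither passed the threshold in limma, where 0 of the 2 had a p under 0.05 before adjustment, or in limma-voom. RGS5, a marker of pericytes, passed with eBayes without a trend. The summed FPKM of the list was 16.9 to 17.6 in sh-NC and 16.1 to 18.7 in sh-TRAF2, nearly all of it CD68, a lysosomal protein that is not restricted to macrophages. PTPRC and EPCAM gave at most 1 read in a sample and PECAM1 at most 2. AIF1 was not analysed here. Since these are bulk libraries of 1 line, a change in the share of cells that express a marker and a change in its RNA per cell cannot be told apart for any gene above.

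For each of the 3 markers that passed the test, the tested genes with the most similar pattern over the 6 samples were found by Pearson's r of log2(FPKM + 0.1), as a description. For NES these were UTP20 (r = 0.9994), NAA15 (0.9988) and RNF181 (0.9984). For VIM they included POLR1E (0.9997) and EPB41L2 (0.9992), and for GFAP they were CFAP36 (0.9982), LOC401021 (0.9952) and SHFL (0.9948). An r above 0.9 was shared by 16.2% of tested genes with NES and by 16.8% with VIM, so an r this high did not single out a few genes. With GFAP, whose pattern follows single samples rather than the groups, 1.69% of tested genes shared such an r.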

How the data were processed

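RNA was sequenced from U251 cells in 3 sh-NC and 3 sh-TRAF2 samples, grouped by their labels. Libraries were made with the VAHTS Universal V6 kit by OE Biotech. The authors deposited 1 table of FPKM values per gene and sample, with GO terms. The submitters' processing notes list HISAT2, HTSeq, R 3.2.0 and DESeq2, with no role or order, and the genome build and annotation are not given in the sources used here.

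From the deposited FPKM, log2(FPKM + 0.1) was compared with limma 3.58.1 in R 4.3.3 (lmFit, eBayes with a trend, two-sided) over the 11870 genes whose mean FPKM reached 0.5, with Benjamini-Hochberg adjustment over these genes. The filter and the pseudocount bear most on low genes such as GFAP. Whole reads that fit the step size of each gene's FPKM within 0.0001 reads were found for 100% of 23002 genes. The smallest such numbers were taken for every gene, so a count can be too low. In simulated data, 98.1% of 2924 genes with reads in more than a single sample were recovered exactly. Where a gene had reads in a single sample, as S100B and MOG did (2643 genes in all), its count is the lowest that fits. Intervals and limits from reads cover counting error only. Single values were tested with the exact two-sided permutation test, which cannot go below 0.1 here. Both scripts were tested on simulated data.

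Named are the 10 markers, TRAF2, up to 4 genes per surrounding list with the smallest adjusted p under 0.05, list genes past the thresholds of the study, low or missing defining markers, and the 3 genes most like each of the 3 called markers. CD68, RGS5, GJA1, GLUL, SNAP25, FUT4, SOX5, CEBPB, SOX4, S100A6, EZR, MSN, ADAM10 and ADAM17, and the genes that overlap a marker, were named outside this rule after their values were seen, and 2 genes that the rule selects are not reported here. The markers and the lists were chosen with earlier results of these data known. Alternatives were pseudocounts of 1 and 0.01, no filter, a filter at a mean FPKM of 1, a replicate block, quantile normalization, TPM, limma-voom on recovered reads (14130 genes reaching a mean of 10), eBayes without a trend and each sample left out in turn. Transcripts and loci came from GENCODE release 29 and promoters from RefSeq. Other steps used scipy 1.17.1, pandas 2.3.3 and numpy 2.4.6 under Python 3.11.15, and figures used matplotlib 3.10.9.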

Additional observations from a re-analysis of the deposited data

How the results depend on the processing

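Of 104 comparisons of 7 log2 fold changes (TRAF2 and the 6 tested markers) with their alternatives, 94 stayed in direction and on their side of the threshold, and 0 reversed. Of 240 comparisons of 16 counts of called genes, 230 stayed within 1.5 times the reported count. Most of these counts are small, and a fall of the markers called higher from 3 to 2, as with no filter, stays within that limit. NES, VIM and TRAF2 kept their direction and their side of the threshold in all 15. GFAP was no longer called with no filter (log2 fold change 1.11, adjusted p = 0.12) or with eBayes without a trend (1.11, adjusted p = 0.0676), and ran from 0.84 to 1.53 with each sample left out in turn. SOX9 ran from 0.07 to 0.17 in the same way, passing only without sh-NC replicate 3. CD44 passed with TPM (-0.09) and quantile normalization (-0.15), so 1 marker was then called lower instead of 0. Past the thresholds of the study, a pseudocount of 1 left 46 genes higher and 41 lower, and limma-voom gave 239 and 174, against 117 and 87. With each sample left out, 95 to 163 were higher and 79 to 95 lower. Among the oligodendrocyte-lineage markers 2 genes (CNP and PDGFRA) passed with eBayes without a trend and with limma-voom, against 1. Of the mesenchymal effectors 8 passed under quantile normalization, against 5. Of the markers of other cell types 1 passed with eBayes without a trend, against 0. The cause of these changes was not tested.

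Samples with the same replicate number did not deviate together (correlations of -0.0812, 0.0722 and 0.0728), so the numbers were not taken to pair the samples. With the replicate number as a block, SOX2 passed (0.12, adjusted p = 0.0374) so 4 markers were called higher instead of 3, no other marker changed its call, and no count over a list moved by more than 1.5 times. At 0 to 11 reads per sample, no difference could be shown for OLIG2, PROM1 or S100B.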
